A study of Homo sapiens with 24 samples.

Results

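The genes described here are 33 regulators and targets of the transcription factors SREBP1 and SREBP2 that act in sterol and fatty acid synthesis. They were chosen by name, with earlier results of these data known. Of the 33 genes, 32 had a row among the 18915 genes of the count table. INSIG1, which encodes an anchor that holds the SREBP precursors in the endoplasmic reticulum, had no row, and its expression was not analysed here. CYP51A1, the lanosterol demethylase, had 16 counts over all 24 libraries and at most 5 in any of them, which was under the minimum for a test. Whether gene models that overlap its transcript end lowered this count was not tested, so the count does not show that the gene was silent. The other 31 genes were tested among 12685 genes in all.

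The data were 3′ mRNA-Seq read counts from HepG2, an established human liver cancer cell line. For 10 h they received bortezomib (50 nM), nelfinavir (20 µM), ISRIB (50 nM), bortezomib plus either of the other drugs at these doses, or DMSO as the vehicle. Each of the 6 treatments had 4 libraries, from what the authors call biological replicates, and 24 libraries were sequenced as 1 pool. Bortezomib inhibits the proteasome, nelfinavir is an HIV protease inhibitor that also activates the stress pathway through eIF2α and ATF4, and ISRIB blocks the effect of eIF2α phosphorylation on translation, so the co-treatments asked how raising or lowering that pathway alters the response to bortezomib.

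Cholesterol is made from acetyl-CoA through mevalonate, isoprenoid diphosphates, squalene and lanosterol, and fatty acids are made from cytosolic acetyl-CoA through malonyl-CoA, followed by elongation and desaturation. When sterols in the membrane of the endoplasmic reticulum are low, SCAP carries the SREBP precursors to the Golgi, where proteases release the part that enters the nucleus and activates these genes. SREBP2 acts mainly on the sterol genes and SREBP1 mainly on the fatty acid genes, and in the liver both pathways feed the lipids that are exported in lipoproteins.

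Levels are given as CPM, counts scaled to library size with TMM factors, which set the typical gene equal between libraries, and the 4 values of a treatment are listed in the order of replicates 1 to 4. A gene was called higher or lower when its p from the edgeR quasi-likelihood test, adjusted over all 12685 genes by the Benjamini-Hochberg method, was under 0.05, and such p-values are written below as edgeR adjusted p. Changes are log2 fold changes with their standard error (SE), each from 4 libraries against 4. Because 3′ reads come from transcript ends, CPM values were compared between treatments and not between genes. Total counts per library ran from 5154533 to 6943164. Mitochondrial genes took up 33.8% ± 1.20 of the counts with bortezomib and 21.5% ± 1.32 with DMSO (mean ± SD of 4 libraries). This share was 36.1% ± 3.13 when ISRIB was added and 27.2% ± 2.26 when nelfinavir was. The part of this share in the results was not tested. Of the other counts, the listed genes took up 0.548% with DMSO, 0.464% with nelfinavir and 0.425% with bortezomib (means). They took up 0.693% with bortezomib and ISRIB and 0.434% with bortezomib and nelfinavir, where the range overlapped that with bortezomib alone. In bulk RNA, a change in RNA per cell and a change in which cells survive cannot be told apart. All 7 hepatocyte markers looked for were present, and their summed level was 9188 to 10714 CPM with DMSO, 8747 to 9895 with ISRIB and 9063 to 10446 with nelfinavir. It was 6972 to 7729 CPM with bortezomib, 4853 to 6474 with bortezomib and nelfinavir and 6522 to 8726 with bortezomib and ISRIB. The markers did not move alike. Mean AFP was 3014 CPM with DMSO, 1259 with bortezomib and 1856 with bortezomib and ISRIB. TF, the only marker with a higher mean with bortezomib than with DMSO, was at 1223, 1387 and 1213 CPM in that order. On adding ISRIB to bortezomib, TF, HNF4A and AHSG had lower means and the other markers higher ones. Of the markers of other cell types, COL1A1 and COL3A1 together did not exceed 1.11 CPM, CD68 ran from 0.751 to 5.21 CPM, and the others had no row.

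The 18 genes from mevalonate to cholesterol were summed per library to show the pathway as a whole. Their sum was 1580.4, 1617, 1652 and 1713 CPM with DMSO, 1194, 1293, 1323 and 1239 with nelfinavir and 1495, 1580.4, 1478 and 1609.8 with bortezomib. It was 1822, 1944, 1848 and 1836 CPM with bortezomib and nelfinavir and 2840.0, 2856, 2832 and 2907 with bortezomib and ISRIB. After TMM scaling, the 4 nelfinavir libraries were the lowest of all and the 4 libraries with bortezomib and ISRIB the highest, with no overlap with any other treatment. Scaled by library totals alone, the 4 bortezomib libraries (1300.1, 1359.8, 1252 and 1361) were lowest, below nelfinavir (1442, 1544, 1535 and 1472), and bortezomib with ISRIB (2345, 2318, 2415 and 2286) was still highest. After TMM scaling the mean was 1.86 times as high with ISRIB added to bortezomib as with bortezomib alone, and 0.769 times the DMSO level with nelfinavir. The sum of the 8 fatty acid genes was 1588, 1623, 1839.7 and 1850.3 CPM with DMSO, 1376, 1515, 1447 and 1602 with bortezomib and 2136, 2136, 2350.0 and 2142 with bortezomib and ISRIB. Every library with bortezomib and ISRIB lay above every other library after TMM scaling, with a mean 1.48 times that of bortezomib alone. With library totals alone these libraries (1764, 1733, 2004 and 1684) were still above bortezomib (1197, 1303, 1226 and 1354), but 3 of 4 were below every DMSO library (1969, 1927, 2210.4 and 2232). SCD and FASN made up most of the fatty acid sum, at 756 and 349 of 1588 CPM in DMSO replicate 1. Genes of low level such as ELOVL6 and FADS2, which were not called on adding ISRIB, hardly entered it.

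**Figure D1:**
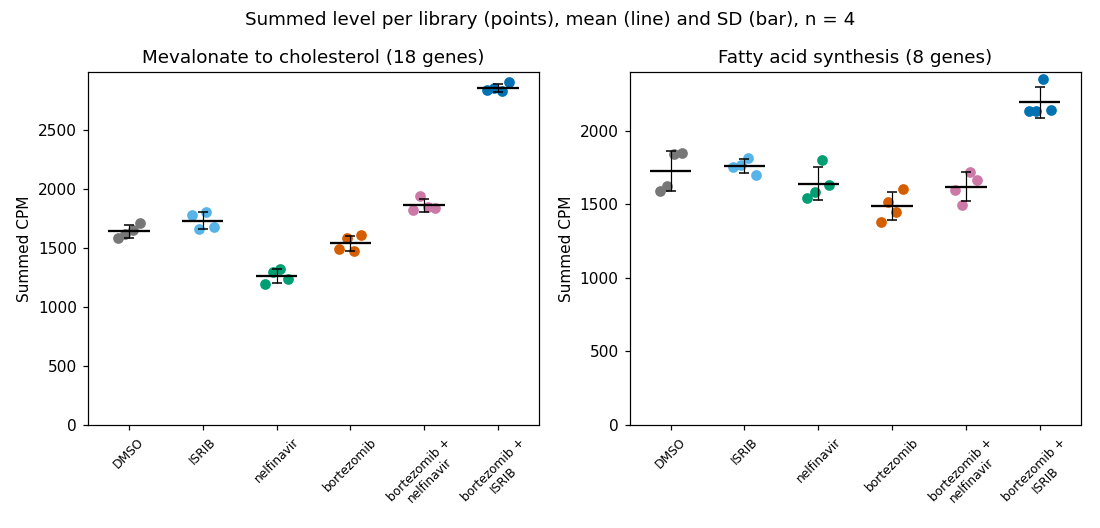
Summed level of the genes from mevalonate to cholesterol (left, 18 genes) and of fatty acid synthesis (right, 8 genes), in CPM on the vertical axes, for each library (points) by treatment (horizontal axes), with the mean (line) and SD (bar) of 4 libraries. After TMM scaling, as drawn, the libraries with bortezomib and ISRIB have the highest sums in both panels, at means of 2859 and 2191 CPM, and the nelfinavir libraries have the lowest sterol sums, at a mean of 1262 CPM. Scaled by totals, bortezomib has the lowest sterol sums, and 3 of 4 fatty acid sums with bortezomib and ISRIB are below DMSO. SCD and FASN make up most of each fatty acid sum.

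With bortezomib against DMSO, the list split. LPIN1, MVD, SC5D, SREBF1, MSMO1, SQLE and 3 genes described further on rose, and ELOVL6, TM7SF2, PMVK, EBP, ACAT2, FADS2, LSS, ACLY and SCD fell. These are 9 of 31 members called higher, where 27.6% of all genes were, and 9 called lower, where 25.8% were, so the shares were near those of all genes. The median log2 fold change of the members was 0.03, beside 0.00 for all genes. Direction depended on scaling in this comparison: with library totals alone the median of all genes shifted by -0.50, and 1 member was called higher and 21 lower, with 1490 and 6266 of all genes beside 3498 and 3275. On that scale LPIN1 was the 1 gene called higher, and the log2 fold changes of MSMO1 and SQLE were -0.0796 and -0.16. Changes and orders of treatments with and without bortezomib are given below relative to the typical gene, and orders that differ with library totals alone are named.

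With nelfinavir alone, part of the sterol branch was lower. HMGCS1, IDI1, FDFT1, SQLE, MSMO1 and NSDHL fell, as did 3 genes described further on, and AACS was called higher. This was 9 of 31 called lower, with 8.84% of all genes called lower, and 1 called higher, with 10.4% called higher. The members' median was -0.19, beside 0.01 for all genes. A model of the nelfinavir and DMSO libraries alone called 17 members lower and 2 higher, where 16.1% and 15.9% of its 12075 genes were called. AACS, at 0.34, was at the threshold (edgeR adjusted p = 0.0496; 0.00938 to 0.192 over the alternatives), and all 4 nelfinavir libraries were above DMSO. Its call was lost without DMSO replicate 1, 2, 3 or 4 (0.0813, 0.109, 0.0881 and 0.123) or nelfinavir replicate 1 or 3 (0.192 and 0.128). It was also lost with DESeq2 size factors (0.0632), library totals alone (0.0815) or no filter (0.0904).

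With ISRIB alone edgeR called 0 members, and 0% of all genes were called higher and 0% lower. At an unadjusted p under 0.05, 1 member (ACAT2) and 703 of all genes differed, and DESeq2 called 0 members, with 1 gene higher and 20 lower in the whole table. The members' log2 fold changes lay between -0.26 and 0.21.

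Added to bortezomib, the same dose of ISRIB went with the most uniform change of the list. Of 31 members 23 were called higher than with bortezomib alone, where 6.91% of all genes were. By edgeR 0 were called lower, where 5.34% of all genes were, and 0 were lower at an unadjusted p under 0.05 or by DESeq2. The members' median was 0.64, beside 0.01 for all genes. By role, 6 of 7 mevalonate and prenyl genes, 9 of 10 tested genes from squalene to cholesterol, STARD4, 6 of 8 fatty acid genes and LPIN1 rose. The 8 members not called were PMVK, TM7SF2, SREBF1, SREBF2, SCAP, ELOVL6, FADS2 and AACS.

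Adding nelfinavir to bortezomib gave a smaller and more mixed change. HMGCS1, HSD17B7, FASN, AACS, SREBF2 and SQLE rose relative to bortezomib alone, and the 3 others called higher and the 1 called lower are described further on. This was 9 of 31 called higher, with 15.6% of all genes, and 1 called lower, with 13.4%. With library totals alone the counts were 7 and 2, with 1689 and 1871 of all genes beside 1975 and 1694. The median over the members was 0.19, beside -0.02 over all genes. Both co-treatments were compared with the same 4 bortezomib libraries, so they share that control.

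**Figure D2:**
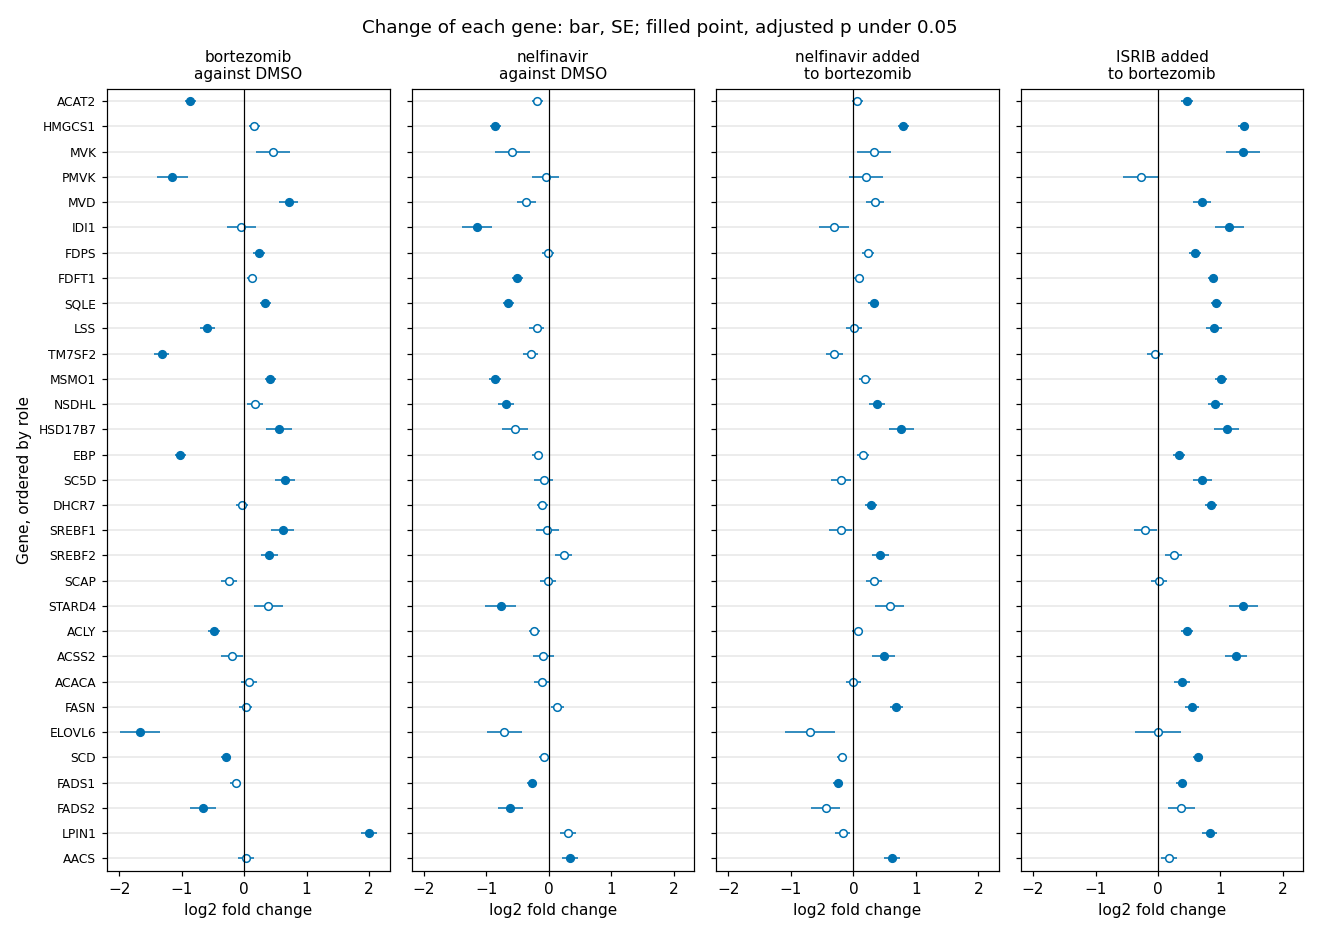
Log2 fold change (horizontal axes) of the 31 tested genes (vertical axis, ordered by role) in 4 comparisons, with the SE as a bar and filled points for an edgeR adjusted p under 0.05. In the panel on the right, ISRIB added to bortezomib, 23 points are filled and all of these lie above 0. In the nelfinavir panel 9 of the 10 filled points lie below 0. With library totals alone the points of the bortezomib panel would shift by -0.50 at the median gene.

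The first enzymes of the pathway make mevalonate and turn it into isoprenoid diphosphates. HMGCS1 (ENSG00000112972, chr5:43287572-43313614 on the minus strand of GRCh37) is the cytosolic HMG-CoA synthase. Its levels were 186, 180.4, 193 and 192 CPM with DMSO, 89.8, 109, 109 and 108 with nelfinavir and 217, 201.3, 233 and 196 with ISRIB. With bortezomib they were 186, 228, 200.03 and 226 CPM, with bortezomib and nelfinavir 327, 373, 390.4 and 371, and with bortezomib and ISRIB 503, 535, 599.9 and 539. The nelfinavir libraries lay below all others, both co-treatments lay above all others, and bortezomib overlapped DMSO (below it with library totals alone). Relative to bortezomib, HMGCS1 rose by 1.37 with ISRIB (SE 0.09, edgeR adjusted p = 2.76e-13) and by 0.80 with nelfinavir (SE 0.09, edgeR adjusted p = 1.38e-08). Nelfinavir alone had the opposite direction, a log2 fold change of -0.86 (SE 0.09, edgeR adjusted p = 2.73e-09). Against DMSO, the change with bortezomib was 0.16 (SE 0.09, edgeR adjusted p = 0.118).

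MVK (ENSG00000110921, chr12:110011060-110035930 on the plus strand of GRCh37) is mevalonate kinase. It stood at 52.1, 64.7, 45.3 and 41.9 CPM with DMSO, 73.4, 74.9, 67.8 and 64.8 with bortezomib, 106, 163, 47.9 and 38.1 with bortezomib and nelfinavir and 193, 235, 101 and 195 with bortezomib and ISRIB. The co-treated libraries were spread widely: replicates 1 and 2 with nelfinavir were high and replicates 3 and 4 low, and replicate 3 with ISRIB was the lowest of its treatment yet above every bortezomib library. MVK rose by 1.36 on adding ISRIB (SE 0.27, edgeR adjusted p = 7.34e-04), and the value on adding nelfinavir was 0.33 (SE 0.28, edgeR adjusted p = 0.394). The value on adding nelfinavir ran from -0.10 to 0.60 over the alternatives and was called in 1 of 15. PMVK (ENSG00000163344, chr1:154897216-154909195 on the minus strand of GRCh37), the phosphomevalonate kinase that acts on the product of MVK, went another way. Its levels were 14.1, 13.4, 13.4 and 14.8 CPM with DMSO, 6.20, 5.62, 3.80 and 9.51 with bortezomib and 4.68, 5.03, 4.84 and 6.17 with bortezomib and ISRIB. All libraries of both bortezomib treatments were below those of DMSO and overlapped each other. PMVK had a log2 fold change of -1.15 with bortezomib (SE 0.25, edgeR adjusted p = 2.13e-04) and of -0.28 on adding ISRIB (SE 0.29, edgeR adjusted p = 0.582). The value on adding ISRIB ran from -0.46 to -0.02 over the alternatives and was called in 0 of 15.

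The promoters of HMGCS1, MVK and PMVK are shown because neighbouring steps of the pathway differed with ISRIB. They are RefSeq sequences of 300 bases, from 250 before to 50 after the start site, from GRCh38.p14, 5′ to 3′ on the gene's strand: chr5:43313363-43313662 (minus) for HMGCS1, chr12:109573544-109573843 (plus) for MVK and chr1:154936670-154936969 (minus) for PMVK. Capitals mark CCAAT, the letters bound by NF-Y, and the sterol regulatory element TCACNCCAC, on either strand.
HMGCS1: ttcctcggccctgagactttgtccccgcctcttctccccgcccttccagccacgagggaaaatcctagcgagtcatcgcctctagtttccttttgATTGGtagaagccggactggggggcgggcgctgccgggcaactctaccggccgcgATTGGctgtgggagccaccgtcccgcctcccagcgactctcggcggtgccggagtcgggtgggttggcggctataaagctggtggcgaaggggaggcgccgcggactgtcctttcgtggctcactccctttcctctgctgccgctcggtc
MVK: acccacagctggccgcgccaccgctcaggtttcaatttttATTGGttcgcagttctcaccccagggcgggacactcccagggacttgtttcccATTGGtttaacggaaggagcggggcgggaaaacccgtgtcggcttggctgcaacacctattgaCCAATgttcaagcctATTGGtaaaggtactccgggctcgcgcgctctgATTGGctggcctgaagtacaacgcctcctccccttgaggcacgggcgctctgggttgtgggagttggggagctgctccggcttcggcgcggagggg
PMVK: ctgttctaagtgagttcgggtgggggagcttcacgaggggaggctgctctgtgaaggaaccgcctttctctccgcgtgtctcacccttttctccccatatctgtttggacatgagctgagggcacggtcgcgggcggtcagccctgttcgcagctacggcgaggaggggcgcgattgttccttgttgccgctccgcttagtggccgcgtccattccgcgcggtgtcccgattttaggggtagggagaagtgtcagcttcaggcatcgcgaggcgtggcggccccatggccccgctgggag
Those of HMGCS1 and MVK hold CCAAT, as ATTGG on the printed strand for HMGCS1, and that of PMVK holds neither motif. Other members differed from this: the promoters of IDI1, ACACA, FADS1 and LPIN1, which also rose on adding ISRIB, hold no CCAAT. Those of TM7SF2 and SREBF2, which were not called, hold it.

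IDI1 (ENSG00000067064, chr10:1085092-1095059 on the minus strand of GRCh37), the isopentenyl diphosphate isomerase, had 37.4, 42.6, 48.4 and 46.0 CPM with DMSO and 17.3, 25.3, 14.7 and 21.6 with nelfinavir. With bortezomib the values were 36.1, 40.3, 42.9 and 49.5 CPM, with bortezomib and nelfinavir 44.4, 49.7, 19.1 and 24.02, and with bortezomib and ISRIB 102, 108, 46.3 and 118. Every nelfinavir library was below every DMSO library, and 3 of 4 libraries with bortezomib and ISRIB were above all others, while replicate 3 lay among the bortezomib values. IDI1 changed by -1.14 with nelfinavir (SE 0.24, edgeR adjusted p = 5.70e-04) and by 1.14 on adding ISRIB to bortezomib (SE 0.23, edgeR adjusted p = 9.23e-04). ACAT2, the cytosolic acetoacetyl-CoA thiolase at the head of the pathway, had 275, 299, 289 and 309 CPM with DMSO, 141, 168, 164 and 171 with bortezomib and 224, 211, 262 and 192 with bortezomib and ISRIB. These 3 ranges did not overlap, and bortezomib with ISRIB lay between the other 2. ACAT2 changed by -0.86 with bortezomib (SE 0.09, edgeR adjusted p = 9.54e-10) and by 0.47 on adding ISRIB (SE 0.09, edgeR adjusted p = 6.11e-04). MVD, the mevalonate diphosphate decarboxylase, and FDPS, which makes farnesyl diphosphate, also rose on adding ISRIB, by 0.70 and 0.59, in 4 of 4 libraries each after TMM scaling. With bortezomib against DMSO, FDPS had a change of 0.24 in 4 of 4 libraries (edgeR adjusted p = 0.0312; 0.0169 to 0.255 over the alternatives), and this call was lost without DMSO replicate 1, 2 or 3 (0.0618, 0.157 and 0.0754) or bortezomib replicate 1, 2, 3 or 4 (0.0629, 0.255, 0.199 and 0.144). It was also lost with DESeq2 size factors (0.0826), no filter (0.222) or DESeq2 (0.0788), and with library totals alone the value was -0.26 and all 4 libraries were below DMSO.

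FDFT1, the squalene synthase, and SQLE, the squalene epoxidase, commit farnesyl diphosphate to sterols. FDFT1 (ENSG00000079459) had 148, 155, 173 and 180.0 CPM with DMSO, 102, 125, 119 and 116 with nelfinavir, 173, 181, 170.5 and 191 with bortezomib, 196, 200.1, 187 and 177 with bortezomib and nelfinavir and 347, 328, 300.2 and 338 with bortezomib and ISRIB. SQLE (ENSG00000104549) had 141, 126, 138 and 149.5 CPM with DMSO, 93.1, 89.7, 91.2 and 80.0 with nelfinavir, 189, 189, 164 and 159.7 with bortezomib, 213, 205, 231 and 228 with bortezomib and nelfinavir and 327, 344, 368 and 300.4 with bortezomib and ISRIB. For both genes, nelfinavir was lowest and bortezomib with ISRIB highest, without overlap. For SQLE, all 5 of these treatments were separate after TMM scaling, in the order nelfinavir, DMSO, bortezomib, bortezomib with nelfinavir, bortezomib with ISRIB. Scaling by totals made bortezomib overlap nelfinavir for FDFT1, and bortezomib with or without nelfinavir overlapped DMSO for SQLE. FDFT1 changed by -0.50 with nelfinavir (SE 0.08, edgeR adjusted p = 2.39e-05) and by 0.88 on adding ISRIB to bortezomib (SE 0.08, edgeR adjusted p = 2.56e-09). SQLE changed by -0.65 with nelfinavir (SE 0.09, edgeR adjusted p = 7.70e-07), by 0.32 on adding nelfinavir to bortezomib (SE 0.09, edgeR adjusted p = 0.00477) and by 0.93 on adding ISRIB (SE 0.09, edgeR adjusted p = 1.55e-09).

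LSS, the lanosterol synthase (ENSG00000160285, chr21:47608055-47648738 on the minus strand of GRCh37), closes the ring system. Its values were 27.8, 30.6, 32.0 and 31.7 CPM with DMSO, 20.5, 19.2, 19.4 and 22.04 with bortezomib, 20.7, 20.0, 17.7 and 23.5 with bortezomib and nelfinavir and 36.3, 38.5, 37.1 and 39.5 with bortezomib and ISRIB. Bortezomib lay below DMSO, with or without nelfinavir, and bortezomib with ISRIB lay above DMSO, or below it with library totals alone. LSS had a log2 fold change of -0.59 with bortezomib (SE 0.12, edgeR adjusted p = 1.57e-04) and of 0.90 on adding ISRIB (SE 0.13, edgeR adjusted p = 5.24e-06). MSMO1 (ENSG00000052802, chr4:166248819-166264316 on the plus strand of GRCh37), the methylsterol monooxygenase, and NSDHL (ENSG00000147383, chrX:151999511-152038273 on the plus strand of GRCh37), a sterol dehydrogenase, remove methyl groups from the ring. MSMO1 was at 106, 101, 103 and 107 CPM with DMSO, 53.3, 66.2, 55.4 and 54.4 with nelfinavir, 149, 126, 128 and 155 with bortezomib, 165, 186, 144 and 142 with bortezomib and nelfinavir and 273, 285, 259 and 307 with bortezomib and ISRIB. NSDHL was at 44.5, 40.2, 37.8 and 41.1 CPM with DMSO, 27.95, 25.3, 26.3 and 22.1 with nelfinavir, 41.7, 55.1, 42.2 and 45.8 with bortezomib and 89.5, 80.4, 107 and 73.6 with bortezomib and ISRIB. For MSMO1 and NSDHL, every nelfinavir library was below and every library with bortezomib and ISRIB above those of the other treatments listed, while bortezomib and DMSO overlapped for NSDHL. On adding ISRIB to bortezomib, MSMO1 rose by 1.01 (SE 0.09, edgeR adjusted p = 1.74e-09) and NSDHL by 0.92 (SE 0.13, edgeR adjusted p = 3.94e-06). With nelfinavir alone the changes were -0.86 for MSMO1 (SE 0.10, edgeR adjusted p = 1.78e-08) and -0.69 for NSDHL (SE 0.13, edgeR adjusted p = 1.50e-04). On adding nelfinavir to bortezomib, NSDHL had a change of 0.37 (edgeR adjusted p = 0.0269; 0.00531 to 0.113 over the alternatives), with 2 of 4 libraries above all bortezomib libraries, and the call was lost without bortezomib replicate 1 or 3 (0.0581 and 0.0573) or bortezomib-nelfinavir replicate 3 or 4 (0.113 and 0.0548). This NSDHL call was also lost with library totals alone (0.0597) or only the groups compared in the model (0.103).

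Among the late enzymes, TM7SF2, a sterol C14 reductase (ENSG00000149809, chr11:64879317-64883856 on the plus strand of GRCh37), was at 70.7, 69.1, 79.2 and 90.2 CPM with DMSO, 34.0, 29.3, 32.7 and 27.4 with bortezomib and 32.1, 23.5, 33.5 and 30.6 with bortezomib and ISRIB. Bortezomib libraries, with or without ISRIB, were all below DMSO and overlapped each other. TM7SF2 changed by -1.32 with bortezomib (SE 0.13, edgeR adjusted p = 9.09e-11), and the value on adding ISRIB was -0.05 (SE 0.13, edgeR adjusted p = 0.870). EBP, the sterol isomerase, also fell with bortezomib, from 197, 205, 209.8 and 204 CPM to 95.8, 100.1, 91.9 and 113, a log2 fold change of -1.02 (SE 0.09, edgeR adjusted p = 1.99e-11), without overlap. DHCR7, which makes cholesterol from its last precursor on one route, had 63.1, 63.9, 70.5 and 73.3 CPM with DMSO, 68.2, 59.9, 64.2 and 71.5 with bortezomib and 115, 109, 118 and 134 with bortezomib and ISRIB. Its DMSO and bortezomib ranges overlapped (bortezomib was below DMSO with library totals alone), and the libraries with ISRIB added were above both. DHCR7 rose by 0.85 on adding ISRIB (SE 0.09, edgeR adjusted p = 3.52e-08). On adding nelfinavir it had a change of 0.29 (edgeR adjusted p = 0.0197; 0.00534 to 0.121 over the alternatives), in 4 of 4 libraries, a call that was lost without bortezomib-nelfinavir replicate 3 (0.0597) and with only the groups compared in the model (0.121).

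SC5D, a sterol desaturase, and HSD17B7, a sterol ketoreductase, rose by 0.71 and 1.10 on adding ISRIB to bortezomib, with 1 library of bortezomib and ISRIB in the bortezomib range for each. EBP rose by 0.34 there (edgeR adjusted p = 0.0124; 0.00711 to 0.0952 over the alternatives), with 3 of 4 libraries above all bortezomib libraries, and the call was lost without bortezomib replicate 1 or 3 (0.0511 and 0.0631) or bortezomib-ISRIB replicate 3 (0.0952). The EBP call was also lost with library totals alone (0.0507) or only the groups compared in the model (0.0681). HSD17B7 with bortezomib against DMSO had a change of 0.55 in 4 of 4 libraries after TMM scaling (edgeR adjusted p = 0.0251; 0.0180 to 0.836 over the alternatives), and that call was lost without DMSO replicate 1, 2 or 4 (0.0502, 0.0855 and 0.0620) or bortezomib replicate 2 or 4 (0.0948 and 0.164) and with library totals alone (0.836).

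**Figure D3:**
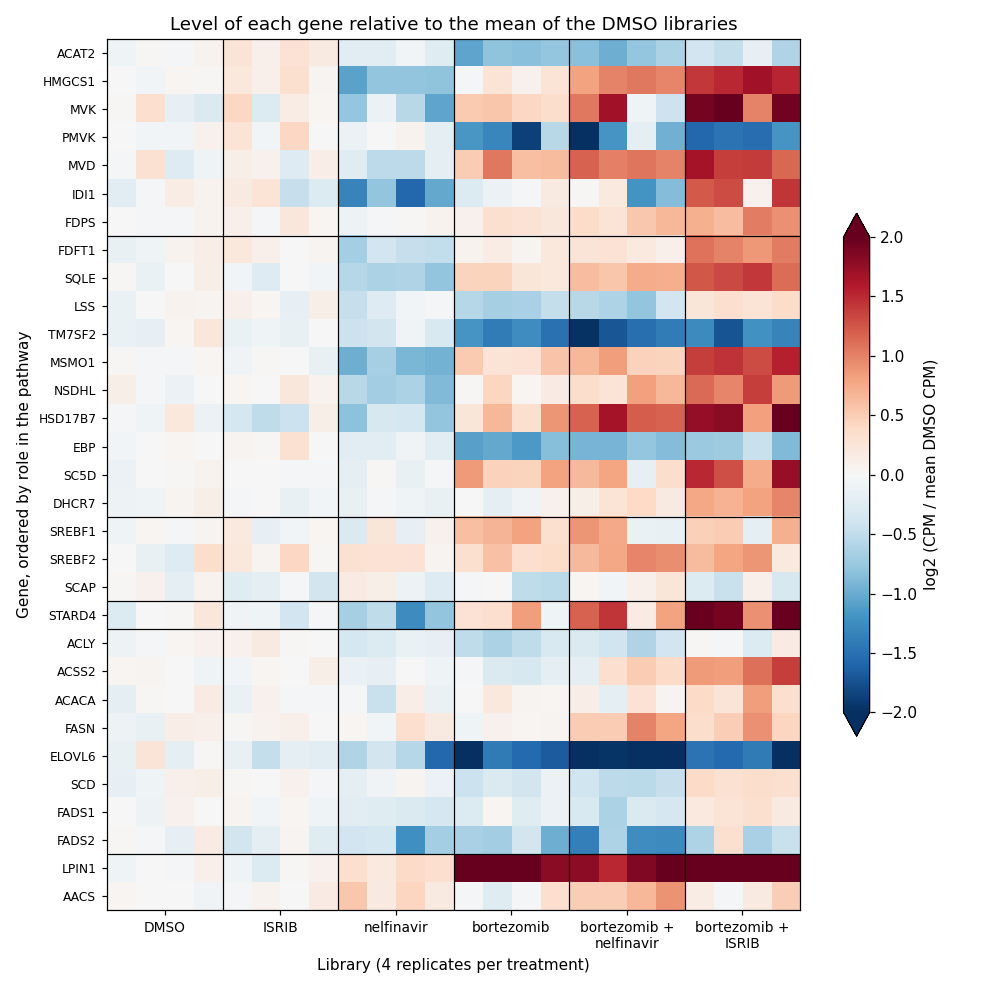
Log2 of the CPM of each of the 31 tested genes (vertical axis, ordered by role, lines between roles) in each of the 24 libraries (horizontal axis, 4 per treatment) over the mean CPM of the DMSO libraries. Colours stop at -2 and 2, and 6 values below and 9 above that scale are drawn in the end colours. Sterol genes such as HMGCS1, SQLE and MSMO1 are blue with nelfinavir and deep red with bortezomib and ISRIB, whereas TM7SF2 and ELOVL6 are blue in every bortezomib library.

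STARD4 (ENSG00000164211, chr5:110831731-110848288 on the minus strand of GRCh37) encodes a cytosolic protein that carries sterols between membranes. Its levels were 9.99, 11.98, 12.3 and 14.1 CPM with DMSO, 7.65, 8.52, 5.06 and 7.01 with nelfinavir, 14.8, 15.3, 21.5 and 11.5 with bortezomib, 27.5, 32.5, 13.6 and 21.2 with bortezomib and nelfinavir and 47.4, 45.4, 22.7 and 47.6 with bortezomib and ISRIB. Nelfinavir libraries were below all DMSO libraries, and bortezomib with ISRIB was above bortezomib in all 4 libraries, with replicate 3 far below the other 3 of its treatment. STARD4 rose by 1.37 on adding ISRIB (SE 0.23, edgeR adjusted p = 6.30e-05), and the value on adding nelfinavir was 0.58 (SE 0.23, edgeR adjusted p = 0.0581). With nelfinavir alone it had a log2 fold change of -0.77 (edgeR adjusted p = 0.0204; 0.00101 to 0.0909 over the alternatives), and this call was lost without DMSO replicate 4 (0.0711) or nelfinavir replicate 3 (0.0909).

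The regulators of these genes are the SREBPs themselves and their escort SCAP. SREBF2 (ENSG00000198911, chr22:42229109-42303310 on the plus strand of GRCh37), the gene of SREBP2, had 34.5, 31.2, 29.1 and 44.4 CPM with DMSO, 43.0, 42.6, 42.4 and 36.2 with nelfinavir, 43.4, 52.0, 43.7 and 44.7 with bortezomib, 54.5, 59.3, 68.2 and 66.3 with bortezomib and nelfinavir and 54.1, 60.1, 64.2 and 39.7 with bortezomib and ISRIB. DMSO replicate 4 reached the bortezomib range, and bortezomib with ISRIB overlapped bortezomib. SREBF2 rose by 0.43 on adding nelfinavir to bortezomib (SE 0.14, edgeR adjusted p = 0.0160), and the value on adding ISRIB was 0.25 (SE 0.14, edgeR adjusted p = 0.249). With bortezomib against DMSO SREBF2 rose by 0.40 (edgeR adjusted p = 0.0140; 0.00196 to 0.565 over the alternatives), a call that was lost without DMSO replicate 2 or 3 (0.0975 and 0.0658) or bortezomib replicate 2 (0.128). That value was -0.10 with library totals alone. SREBF1 (ENSG00000072310, chr17:17713713-17740316 on the minus strand of GRCh37), the gene of SREBP1, had 22.3, 24.3, 23.2 and 24.5 CPM with DMSO, 35.7, 37.8, 41.4 and 29.6 with bortezomib, 43.3, 40.0, 21.4 and 21.4 with bortezomib and nelfinavir and 32.9, 33.5, 20.8 and 38.8 with bortezomib and ISRIB. All bortezomib libraries were above DMSO, and in the co-treatments replicates 3 and 4 with nelfinavir and replicate 3 with ISRIB were below the DMSO values. SREBF1 rose by 0.62 with bortezomib (SE 0.19, edgeR adjusted p = 0.00600), and the value on adding ISRIB was -0.20 (SE 0.19, edgeR adjusted p = 0.542). The bortezomib value of SREBF1 was not called with library totals alone, and its libraries then overlapped DMSO. SCAP was not called in any comparison of the main analysis, with log2 fold changes between -0.24 and 0.34. It was called lower in 5 of 15 alternatives for bortezomib against DMSO (log2 fold change down to -0.74, edgeR adjusted p 2.38e-05 to 0.208 over them) and in 4 of 15 against nelfinavir (down to -0.70, edgeR adjusted p 5.73e-05 to 0.336). On adding nelfinavir to bortezomib, 6 of 15 alternatives, 1 of them DESeq2, called SCAP higher (up to 0.47, adjusted p by edgeR or DESeq2 0.0130 to 0.140).

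Promoters of 29 of 33 genes, including INSIG1 and CYP51A1, were found in the promoter file used, and those of ACAT2, FASN, FDFT1 and SQLE were not matched in it. The sterol regulatory element TCACNCCAC was found in 1 of the 29, that of SREBF2 (chr22:41832855-41833154, plus, GRCh38.p14), and in 1.15% of all 27305 promoters of the same length. It is printed with that of STARD4 (chr5:111512486-111512785, minus), a gene with one of the largest rises on adding ISRIB, with the same letters in capitals.
SREBF2: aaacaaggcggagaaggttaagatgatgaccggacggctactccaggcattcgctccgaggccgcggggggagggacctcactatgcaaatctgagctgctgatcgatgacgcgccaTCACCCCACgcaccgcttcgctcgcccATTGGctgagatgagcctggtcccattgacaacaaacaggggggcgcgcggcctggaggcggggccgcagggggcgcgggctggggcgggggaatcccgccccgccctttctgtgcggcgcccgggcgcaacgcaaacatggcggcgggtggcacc
STARD4: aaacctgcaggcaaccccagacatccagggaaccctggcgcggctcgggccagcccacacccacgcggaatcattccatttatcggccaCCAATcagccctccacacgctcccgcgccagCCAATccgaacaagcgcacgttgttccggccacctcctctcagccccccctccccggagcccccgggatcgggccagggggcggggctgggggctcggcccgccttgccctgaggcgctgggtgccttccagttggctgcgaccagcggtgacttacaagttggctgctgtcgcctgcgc
In SREBF2 the element spans positions -133 to -125 from the start site. CCAAT was in 18 of 29 promoters (35.7% of all promoters), the E-box CACGTG in 4 (7.43%) and the GC box GGGCGG in 27 (44.6%), all counted on both strands. Of the 23 genes that rose on adding ISRIB to bortezomib, 19 had a promoter and 15 of these held CCAAT, against 2 of the 8 genes that were not called. With nelfinavir against DMSO the order was the other way, with CCAAT in 4 of the 7 promoters of genes called lower and in 13 of 19 of those not called, and neither difference was tested. A match is a description of the letters in this window and not of a bound site. Only these exact letters were searched, so a promoter without a match may still hold a variant of the site.

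Fatty acid synthesis starts with cytosolic acetyl-CoA, which ACLY makes from citrate and ACSS2 from acetate. ACLY was at 203, 213, 222 and 229 CPM with DMSO, 152, 139.6, 153 and 176 with bortezomib and 221, 214, 179 and 243 with bortezomib and ISRIB. ACSS2 (ENSG00000131069, chr20:33459949-33515765 on the plus strand of GRCh37) was at 9.76, 9.89, 9.52 and 8.95 CPM with DMSO, 9.41, 7.76, 7.60 and 8.43 with bortezomib, 8.45, 12.04, 13.6 and 12.4 with bortezomib and nelfinavir and 17.1, 17.0, 20.4 and 24.9 with bortezomib and ISRIB. For ACLY, bortezomib was below DMSO, and bortezomib with ISRIB was above bortezomib and spread on both sides of the DMSO range (below it with library totals alone), whereas ACSS2 with ISRIB added was above all other treatments listed. On adding ISRIB, ACLY rose by 0.46 (SE 0.09, edgeR adjusted p = 6.44e-04) and ACSS2 by 1.26 (SE 0.18, edgeR adjusted p = 5.24e-06). ACACA, the acetyl-CoA carboxylase that makes malonyl-CoA, rose by 0.39 there (edgeR adjusted p = 0.0384; 0.0292 to 0.233 over the alternatives), in 4 of 4 libraries after TMM scaling, and its call was lost without bortezomib replicate 1, 3 or 4 (0.103, 0.0883 and 0.0895) or bortezomib-ISRIB replicate 1 or 3 (0.0541 and 0.233). The ACACA call was also lost with library totals alone (0.0927) or only the groups compared in the model (0.0784). ACSS2 had a change of 0.49 on adding nelfinavir to bortezomib (edgeR adjusted p = 0.0430; 0.00775 to 0.206 over the alternatives), with 3 of 4 libraries above the bortezomib range, and this call was lost without bortezomib replicate 2 or 3 (0.0651 and 0.0712) or bortezomib-nelfinavir replicate 2, 3 or 4 (0.0505, 0.118 and 0.0720). It was lost as well with library totals alone (0.0655), no filter (0.1003), the replicate block (0.0544) or only the groups compared in the model (0.206).

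FASN (ENSG00000169710, chr17:80036214-80056170 on the minus strand of GRCh37), the fatty acid synthase, was at 349, 341, 411 and 404 CPM with DMSO, 387, 363, 477 and 425 with nelfinavir, 353, 399, 388 and 389.6 with bortezomib, 535, 537, 745 and 647 with bortezomib and nelfinavir and 481, 529, 707 and 507 with bortezomib and ISRIB. Both co-treatments were above the other treatments listed and overlapped each other, but with library totals alone they overlapped DMSO and nelfinavir. FASN rose by 0.69 on adding nelfinavir to bortezomib (SE 0.11, edgeR adjusted p = 1.11e-05) and by 0.54 on adding ISRIB (SE 0.11, edgeR adjusted p = 8.07e-04). SCD (ENSG00000099194, chr10:102106990-102124583 on the plus strand of GRCh37), the stearoyl-CoA desaturase, was at 756, 794, 910.3 and 921 CPM with DMSO, 629, 688, 656 and 776 with bortezomib, 644, 587, 581 and 614 with bortezomib and nelfinavir and 1105, 1046, 1084 and 1060.5 with bortezomib and ISRIB. Here the co-treatments parted: all 4 libraries with ISRIB added were above the others listed, and 3 of 4 with nelfinavir added were below every bortezomib library. On the scale of library totals, SCD with ISRIB added was above bortezomib and below DMSO. SCD rose by 0.64 on adding ISRIB (SE 0.08, edgeR adjusted p = 4.76e-07), and the value on adding nelfinavir was -0.18 (SE 0.08, edgeR adjusted p = 0.0828). ELOVL6, an elongase of saturated fatty acids, was at 5.58, 7.42, 5.46 and 6.25 CPM with DMSO, 1.28, 2.33, 2.11 and 1.94 with bortezomib and 2.23, 2.09, 2.32 and 0.987 with bortezomib and ISRIB. Both bortezomib treatments were below DMSO in all libraries, with a log2 fold change of -1.67 for bortezomib (SE 0.32, edgeR adjusted p = 4.04e-05) and of 0.00 on adding ISRIB (SE 0.37, edgeR adjusted p = 0.999). These ELOVL6 values rest on few reads, 6, 12, 10 and 9 counts with bortezomib and 10, 10, 11 and 4 with bortezomib and ISRIB.

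The genes of the desaturases of long polyunsaturated fatty acids, FADS1 and FADS2, overlap on opposite strands of chromosome 11. FADS1 was at 194, 181, 206 and 195 CPM with DMSO, 166, 165, 159 and 154 with nelfinavir, 161, 199, 165 and 179.8 with bortezomib, 157, 126, 158 and 153 with bortezomib and nelfinavir and 221, 235, 242 and 219 with bortezomib and ISRIB. Nelfinavir libraries were below DMSO, nelfinavir with bortezomib was below bortezomib, and ISRIB with bortezomib was above all others, or below DMSO with library totals alone. FADS1 rose by 0.38 on adding ISRIB (SE 0.08, edgeR adjusted p = 0.00199). It had a log2 fold change of -0.27 with nelfinavir (edgeR adjusted p = 0.0168; 0.00327 to 0.0680 over the alternatives), lost without DMSO replicate 3 (0.0680) or nelfinavir replicate 4 (0.0584). On adding nelfinavir to bortezomib the value was -0.24 (edgeR adjusted p = 0.0274; 0.0207 to 0.303 over the alternatives), and this call was lost without bortezomib replicate 2, 3 or 4 (0.286, 0.0628 and 0.132) or bortezomib-nelfinavir replicate 1, 2 or 4 (0.0819, 0.303 and 0.0836). This FADS1 call was also lost with no filter (0.178) or only the groups compared in the model (0.101). FADS2 had 19.4, 18.5, 16.9 and 21.4 CPM with DMSO, 14.7, 14.97, 8.18 and 11.9 with nelfinavir and 12.2, 11.8, 14.8 and 9.72 with bortezomib, and all libraries of both drugs were below DMSO. FADS2 changed by -0.65 with bortezomib (SE 0.21, edgeR adjusted p = 0.00856). With nelfinavir it had -0.61 (edgeR adjusted p = 0.0255; 0.00340 to 0.139 over the alternatives), lost without DMSO replicate 1 or 4 (0.0580 and 0.0846) or nelfinavir replicate 3 or 4 (0.139 and 0.0671).

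LPIN1 (ENSG00000134324, chr2:11817721-11967535 on the plus strand of GRCh37), a phosphatidate phosphatase that also acts in the nucleus, had the largest change of all members with bortezomib after TMM scaling, while with library totals alone the changes of ELOVL6, TM7SF2, PMVK and EBP were larger. It was at 17.0, 17.96, 17.6 and 19.4 CPM with DMSO, 22.8, 20.5, 23.4 and 22.6 with nelfinavir, 75.5, 73.3, 75.8 and 62.9 with bortezomib, 62.1, 50.9, 64.6 and 76.9 with bortezomib and nelfinavir and 124, 116, 157 and 113 with bortezomib and ISRIB. Bortezomib and both co-treatments were above DMSO in every library, and ISRIB with bortezomib was above bortezomib. LPIN1 rose by 2.00 with bortezomib (SE 0.13, edgeR adjusted p = 4.43e-15) and by a further 0.83 on adding ISRIB (SE 0.12, edgeR adjusted p = 5.24e-06). AACS, which activates acetoacetate for lipid synthesis, was at 37.7, 37.0, 36.9 and 34.9 CPM with DMSO, 36.1, 31.0, 35.7 and 46.5 with bortezomib, 51.6, 51.5, 58.2 and 68.3 with bortezomib and nelfinavir and 40.7, 35.6, 41.7 and 51.3 with bortezomib and ISRIB. The 4 libraries with bortezomib and nelfinavir were above all those of DMSO (overlapping them with library totals alone) and bortezomib, and AACS rose by 0.62 on adding nelfinavir (SE 0.13, edgeR adjusted p = 3.80e-04).

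Whether nelfinavir and ISRIB had another effect in the presence of bortezomib than in its absence was tested as an interaction. For nelfinavir, 10 of 31 members had a higher effect with bortezomib, with 9.74% of all genes, and LPIN1 alone a lower effect, with 10% of all genes, and the members' median was 0.30 beside -0.02 for all genes. The largest was HMGCS1 at 1.66 (SE 0.12, edgeR adjusted p = 4.59e-12), which fell with nelfinavir alone and rose when nelfinavir joined bortezomib. SQLE also fell in the first comparison and rose in the second, with an interaction of 0.97. For LPIN1 the interaction of -0.48 had an edgeR adjusted p of 0.0469 (0.0278 to 0.182 over the alternatives), and it was lost without DMSO replicate 1, 2 or 3 (0.0900, 0.0784 and 0.0745), nelfinavir replicate 1, 3 or 4 (0.0724, 0.0818 and 0.0733), bortezomib replicate 1, 2, 3 or 4 (0.128, 0.121, 0.131 and 0.0576) or bortezomib-nelfinavir replicate 1, 2 or 3 (0.124, 0.182 and 0.0890). The LPIN1 call was also lost with DESeq2 size factors (0.0625), library totals alone (0.0635), no filter (0.130), DESeq2 (0.0583) or only the groups compared in the model (0.0629). For ISRIB, 15 of 31 had a higher effect with bortezomib, with 2.93% of all genes, and the members' median was 0.62 beside 0.01. By edgeR 0 had a lower effect, with 1.89% of all genes, and 0 did at an unadjusted p under 0.05 or by DESeq2. STARD4 had the largest, 1.50 (SE 0.32, edgeR adjusted p = 0.00367), followed by HSD17B7 at 1.36 (SE 0.29, edgeR adjusted p = 0.00310).

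Compared directly, the 2 single drugs differed for most members. With bortezomib against nelfinavir, 14 of 31 were called higher (25.2% of all genes) and 9 lower (23.6%), with a median of 0.16 beside 0.00 for all genes. With library totals alone the counts were 9 and 16, with 1197 and 6113 of all genes beside 3191 and 2989, and a median shift of -0.47. MSMO1 was higher with bortezomib by 1.28 (SE 0.10, edgeR adjusted p = 6.39e-13), as were IDI1 by 1.10 and HMGCS1 by 1.02. PMVK and TM7SF2 were lower with bortezomib, with log2 fold changes of -1.10 and -1.04.

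Some values may hold reads of neighbours, since the sources used here do not state the strand setting of the counting. In the last 500 bases of their transcripts, ACAT2 overlaps TCP1, FADS1 overlaps FADS2, FDPS overlaps RUSC1-AS1, IDI1 overlaps IDI2-AS1 and SREBF1 overlaps RAI1, all on the opposite strand. The same holds for HMGCS1 and LSS with noncoding genes, and for EBP with another gene model on the same strand. For CYP51A1, gene models on the same strand overlap 494 and 477 of the last 500 bases. This gene had 16 counts in all, and whether its own reads went uncounted for this reason was not tested. HSD17B7 shares 495 bases at 98.18% identity with the copy HSD17B7P2, and these genes' levels are uncertain to that extent.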

How the data were processed

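RNA of 24 libraries was measured by 3′ mRNA-Seq, and the authors trimmed reads with cutadapt 2.8, aligned them to the hg19 genome with STAR and deposited counts per gene. For the libraries and counts the authors name the QuantSeq FWD kit, the nf-core RNA-Seq pipeline and Ensembl annotations of GRCh37. The sources used here do not name the counting program or its strand setting. From these counts, CPM, log2 fold changes and tests were computed in R 4.3.3 with edgeR 4.0.16 (TMM scaling, quasi-likelihood test on 6 group means, Benjamini-Hochberg adjustment). Genes needed 5 counts in enough libraries and 25 in total, which kept 12685 of 18915 (67.1%). Interactions were tested as differences of differences. DESeq2 1.42.0, 2 other scalings, 2 other filters, a model of the groups compared alone, a replicate block and leaving out each library were the alternatives. Scripts were tested on simulated data. Promoters came from RefSeq for GRCh38.p14 and positions from GENCODE for GRCh37, read with Python 3.11.15. Between replicates, the least scattered pair had a chi-square of 2.19 per degree of freedom, more than counting alone gives. The members and lists were chosen with earlier results of these data known.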

Additional observations from a re-analysis of the deposited data

Results flagged for a closer look

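In 15 of the 186 groups of 4 libraries looked at, 1 value stood far from the other 3, by a rule that chance alone meets in about 1 of 20 groups. These were ACAT2 in nelfinavir replicate 3 (284 CPM against 248 to 251), HMGCS1 in nelfinavir replicate 1 (89.8 CPM against 108 to 109), MVD in ISRIB replicate 3 (14.3 CPM against 18.1 to 18.7), MSMO1 in nelfinavir replicate 2 (66.2 CPM against 53.3 to 55.4) and HSD17B7 in bortezomib with nelfinavir replicate 2 (35.9 CPM against 25.7 to 26.3). Others were EBP in ISRIB replicate 3 (251 CPM against 206 to 211), EBP in nelfinavir replicate 3 (193 CPM against 175 to 177), SREBF2 in nelfinavir replicate 4 (36.2 CPM against 42.4 to 43.0), SREBF2 in bortezomib replicate 2 (52.0 CPM against 43.4 to 44.7) and STARD4 in ISRIB replicate 3 (9.32 CPM against 11.4 to 11.7). The remaining 5 were STARD4 in bortezomib with ISRIB replicate 3 (22.7 CPM against 45.4 to 47.6), ELOVL6 in bortezomib with ISRIB replicate 4 (0.987 CPM against 2.09 to 2.32), FADS1 in bortezomib with nelfinavir replicate 2 (126 CPM against 153 to 158), FADS2 in bortezomib with nelfinavir replicate 2 (12.5 CPM against 7.40 to 8.06) and FADS2 in bortezomib with ISRIB replicate 2 (23.9 CPM against 12.2 to 14.1).

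Interaction values with an edgeR adjusted p under 0.05 mark genes on which a drug had another effect with bortezomib than without it. For nelfinavir these log2 values were HMGCS1 1.66, MVD 0.71, FDFT1 0.59, SQLE 0.97, MSMO1 1.05, NSDHL 1.06, HSD17B7 1.31, DHCR7 0.39, STARD4 1.35, FASN 0.55 and LPIN1 -0.48. For ISRIB they were HMGCS1 1.20, IDI1 1.18, FDPS 0.51, FDFT1 0.78, SQLE 1.02, LSS 0.87, MSMO1 1.06, NSDHL 0.83, HSD17B7 1.36, DHCR7 0.91, STARD4 1.50, ACSS2 1.22, SCD 0.62, FADS1 0.39 and LPIN1 0.88.

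Some of these interactions were not called when 1 library was left out, and the edgeR adjusted p without it is given in brackets. For nelfinavir they were DHCR7, without DMSO replicate 3 or 4 (0.0613 and 0.0740), nelfinavir replicate 1 or 4 (0.0543 and 0.0576) or bortezomib-nelfinavir replicate 3 (0.0504) or with no filter (0.0526) (edgeR adjusted p 0.0100 to 0.0740 over the alternatives), and MVD, without DMSO replicate 2 (0.0502) (edgeR adjusted p 0.00244 to 0.0502), beside LPIN1, described above. For ISRIB they were FDPS, without bortezomib replicate 1 (0.0573) or bortezomib-ISRIB replicate 3 (0.0541) (edgeR adjusted p 0.00733 to 0.0573), and IDI1, without DMSO replicate 3 or 4 (0.0584 and 0.0530), ISRIB replicate 3 or 4 (0.0640 and 0.0615), bortezomib replicate 1 (0.0517) or bortezomib-ISRIB replicate 2 or 4 (0.0551 and 0.0582) (edgeR adjusted p 1.20e-07 to 0.0640). FADS1 was not called without DMSO replicate 1, 2, 3 or 4 (0.0787, 0.0568, 0.101 and 0.0766), ISRIB replicate 1, 2 or 4 (0.0602, 0.0812 and 0.0929), bortezomib replicate 1, 3 or 4 (0.117, 0.119 and 0.0778) or bortezomib-ISRIB replicate 1, 2, 3 or 4 (0.0724, 0.0993, 0.0909 and 0.0609), nor with DESeq2 size factors (0.0677), library totals alone (0.113) or no filter (0.121) (edgeR adjusted p 0.0200 to 0.121).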

How the results depend on the processing

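The analysis was repeated with other scaling, filters and software, with only the groups compared in the model, with the replicate number as a block, and without each library in turn. Of 1858 repeated values for the 110 called results of single genes, 1705 kept the call, 148 missed the threshold and 5 reversed direction, and 77 results kept the call throughout. A value was counted as reversed when its sign changed and it passed the threshold in the original analysis, in the repeat or in both. Of 2358 values for the 138 uncalled results, 102 passed the threshold and 8 reversed. All 13 reversals came with library totals alone, and 119 of all 4216 values changed sign without passing the threshold in either analysis, with that and other alternatives. Those 119 values are not listed here. With bortezomib against DMSO the reversed values were HMGCS1 -0.34, FDPS -0.26, FDFT1 -0.37, SQLE -0.16, MSMO1 -0.0796, NSDHL -0.32, SREBF2 -0.10, ACACA -0.42, FASN -0.48 and AACS -0.47, and against nelfinavir they were FDPS -0.23, DHCR7 -0.41 and FADS1 -0.34. With the same scaling, members called higher and lower went from 9 and 9 to 1 and 21 for bortezomib against DMSO (11.7% and 49.4% of all genes), and from 14 and 9 to 9 and 16 against nelfinavir (9.44% and 48.2%).

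For nelfinavir against DMSO, the 1 member called higher became 0 with DESeq2 size factors (9.96% of all genes), library totals (9.16%) or no filter (6.22%) and 2 with only the groups compared, where the 9 called lower became 17. Over all genes that model called 1948 of 12075 lower and 1925 higher, beside 1121 and 1320 of 12685. For nelfinavir added to bortezomib, the 1 called lower became 2 with library totals (14.7% of all genes) and 0 with no filter (7.75%) or only the groups compared (8.56%), and the 9 called higher became 7 (13.3%), 12 (11.5%) and 6 (11.4%). The 1 lower interaction of nelfinavir became 0 with DESeq2 size factors (9.35% of all genes), library totals (9.85%), no filter (5.43%), DESeq2 (10.9%) and only the groups compared (9.28%). The cause of these differences was not tested.

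Leaving out 1 library at a time gave 6 to 8 members higher (23.5% to 25.6% of all genes) and 9 to 11 lower (23.7% to 26.3%) for bortezomib. For nelfinavir it gave 0 to 1 higher (7.87% to 9.61%) and 7 to 9 lower (6.45% to 7.95%), and for ISRIB 0 and 0 (0 and 0). On adding nelfinavir to bortezomib 7 to 11 were higher (13.7% to 17.4%) and 0 to 1 lower (9.09% to 11.3%), and on adding ISRIB 21 to 23 higher (5.52% to 6.56%) and 0 lower (4.30% to 5.27%). Between the single drugs 13 to 14 were higher (21.6% to 23.4%) and 6 to 10 lower (21.6% to 24.3%). Interactions gave 9 to 12 higher (8.16% to 11.3%) and 0 to 1 lower (7.89% to 9.04%) for nelfinavir and 13 to 16 higher (2.12% to 3.15%) and 0 lower (1.27% to 2.28%) for ISRIB.

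With the replicate block, edgeR called 9 members higher and 9 lower for bortezomib (27.7% and 26.1% of all genes), 1 and 9 for nelfinavir (10.7% and 9.48%) and 0 and 0 for ISRIB (0 and 0). They were 9 and 1 on adding nelfinavir (15.8% and 13.7%), 23 and 0 on adding ISRIB (7.05% and 5.63%), and 14 and 9 between the single drugs (25.5% and 23.8%). On adding nelfinavir the same count hid 1 call lost, ACSS2 (edgeR adjusted p 0.0544; 0.00775 to 0.206 over the alternatives), and 1 gained, FDPS (0.0418; 0.0109 to 0.181). Interactions under the replicate block were 11 higher and 1 lower for nelfinavir (10.2% and 10.3%), with IDI1 gained, and 19 higher and 0 lower for ISRIB (3.26% and 2.19%), with FASN, MVD, MVK and SC5D gained. No other call of a member changed under the block. Libraries with the same number correlated above 0.1 in 10 of 60 pairs (-0.0846 to 0.215) and those with other numbers in 7 of 180. The median correlations were 0.0135 and -0.00644. The main model did not take the numbers as pairs, although correlations above 0.1 were more frequent among libraries of the same number.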

Other observations

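In the libraries with bortezomib and ISRIB, replicate 3 was the lowest of its treatment for 10 of 31 members, among them MVK, IDI1 and STARD4, and the highest for 14, among them HMGCS1, SQLE and FASN. Among those with bortezomib and nelfinavir, replicates 1 and 2 were both above replicates 3 and 4 for 8 members, with MVK, IDI1 and STARD4 again among them, and both below for 13, with SQLE and FASN among them. The mitochondrial share in replicates 1 to 4 was 28.5, 29.6, 24.9 and 25.6 percent with bortezomib and nelfinavir and 35.4, 36.3, 32.6 and 40.2 percent with bortezomib and ISRIB. The summed hepatocyte markers in the same order were 6474, 5934, 4853 and 5150.1 CPM with bortezomib and nelfinavir and 8095, 7874, 6522 and 8726 CPM with bortezomib and ISRIB, and no test of the part of either was made. Mean levels were highest with bortezomib and ISRIB in 19 of 31 members and lowest with nelfinavir alone in 15, or in 15 and 11 with library totals alone. The same was not counted over all genes, so it is not known whether these numbers are unusual for the series.

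Other lipid genes were also counted on adding ISRIB to bortezomib, where 6.91% of all genes were called higher and 5.34% lower. Of 10 further sterol genes 4 were called higher, led by C14orf1 at 0.62, and 1 lower, RDH11 at -0.56. For SREBP cleavage and INSIG turnover 2 of 8 were called higher, INSIG2 at 0.94 and SYVN1 at 0.89. Among 9 genes of isoprenoid branches NUS1 was higher at 0.52 and PDSS2 lower at -0.55. In 15 tested genes of other fatty acid steps 3 were higher, led by PNPLA3 at 1.13, and 1 lower, GPAM at -0.42. Of 7 LXR genes and targets edgeR called 0 higher or lower, with 0 at an unadjusted p under 0.05 and 0 by DESeq2. These genes were tested with edgeR at the same threshold, and leaving out libraries was not tried for them.

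Some limits apply. All values are RNA levels at 10 h and 1 dose per drug, so protein, SREBP processing and lipids were not measured. Counts are relative to the typical gene, and a p above the threshold does not show that a gene was unaffected.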
